A study of Rattus norvegicus with 20 samples.

Results

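The mir-183, mir-96, mir-182 cluster consists of 3 neighbouring miRNA genes, and the 3 hairpin precursors rno-mir-182, rno-mir-183 and rno-mir-96 were followed across the tissues of the rat. They were chosen by name and not by their values. They are 3 of the 444 precursors listed per library, and 4 of their mature arms (miR-182, miR-183-5p, miR-183-3p and miR-96-5p) are among the 577 mature miRNAs listed. The samples came from male Long Evans rats that received no treatment, at postnatal day 35, and were profiled by small RNA sequencing in order to ask which tissues could give rise to miRNAs found in serum. The 20 libraries comprised 3 whole brain hemispheres run singly, 3 replicates of blood serum, and pools of 3 rats from 14 further tissues with a single library per tissue (fat was subcutaneous, from the abdomen, and muscle came from the hindlimb). The pools have no replicates, so their values carry counting error only, given as 95% Wilson intervals, and reads are not independent molecules. Where replicates were deposited, no label states that brain and serum of the same number came from the same animal, and the p-values measure the spread between these libraries.

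miRNAs are cut from hairpin precursors into short mature strands that guide the silencing complex to matching sites in messenger RNAs, mostly through the seed, the bases near the 5′ end. The genes of this cluster are transcribed together, and the cluster is best known from sensory organs: its miRNAs are abundant in the photoreceptors of the retina and in the hair cells of the inner ear, and changes in the seed of miR-96 cause progressive hearing loss. They are also found in other epithelia and in sensory ganglia. In a whole tissue, fewer cells of a type and less RNA per cell cannot be told apart.

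The mature sequences are shown because the members differ in few bases of the seed and because 1 of them meets a partner on the opposite strand. Capitals mark the seed, bases 2 to 8 counted from 1 at the 5′ end. The sequences are those of RefSeq on the GRCr8 assembly, where the cluster lies on chromosome 4 on the minus strand between the protein-coding genes Nrf1 and Ube2h, in the order Mir182, Mir96 and Mir183 from the Nrf1 side, and Mir3553 lies on the plus strand over Mir183. No positions are given, since the authors aligned to Rn5.
miR-182: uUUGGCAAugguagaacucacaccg
miR-96-5p: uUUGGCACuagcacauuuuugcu
miR-183-5p: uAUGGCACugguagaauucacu
miR-183-3p: uGAAUUACcgaagggccauaa
miR-3553: cAGUGAAUucuaccagugccaua

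miR-182 and miR-96-5p shared bases 2 to 7 and differed at base 8, so that their seeds over bases 2 to 8 were UUGGCAA and UUGGCAC. Among the 534 listed mature miRNAs that were found in the reference by name, those 2 were the only holders of that shared stretch, and each member arm was the sole holder of its own seed over bases 2 to 8. Aligned from base 1, miR-182 and miR-183-5p had equal bases at 18 of 22 positions, whereas miR-183-5p and miR-96-5p had 13 of 22 and miR-182 and miR-96-5p 12 of 23. miR-3553 contained the full reverse complement of miR-183-5p, 22 of 22 bases.

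Levels are given as RPM, reads scaled to 1000000 reads of the same list of precursors or of mature miRNAs. Precursor reads numbered 388275 to 1204552 in the hemispheres, 162080 to 3685761 in the pools and 7556 to 10862 in serum. A level of 3 reads, used as the lower limit for statements on a miRNA with 0 reads, corresponded to 2.49 to 7.73 RPM in a hemisphere, 0.814 to 18.5 RPM in a pool, 276 to 397 RPM in a serum library and 114 RPM in the 3 serum libraries together. Marker precursors were highest in their own tissue for brain, muscle, heart, skin, testes and small intestine. The library labelled pancreas had 0 reads of mir-216a and mir-217 and 1 read of mir-216b, the miRNAs of pancreatic acinar cells, beside 14862 RPM of the liver miRNA mir-122 (14726 RPM in liver), so it is named by its label only.

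The reads of mir-183 could not be separated from those of its antisense neighbour mir-3553. In the 18 libraries with any such read, 86.0% of the sum of both precursors stood under mir-3553 and the rest under mir-183, whatever the tissue or the depth. The sum was within 0.02 of a whole number of reads in 17 of 18 libraries, whereas the mir-183 value alone was so in 1 of 18, and the values of mir-182 and mir-96 were whole in all 20 libraries. The mature list divided the same reads differently. In the 12 libraries with at least 10 of these reads, miR-3553 received nearly all of them and miR-183-5p at most 0.00107 reads, while in heart and in serum replicate 2, with 1 read each, miR-183-5p was given 0.898 reads. miR-183-3p, the other arm of the mir-183 hairpin, was counted in whole reads, with 24 reads in 7 libraries, which was 0.231% (0.155 to 0.344%) of the 10380 mature reads at the site. From these files the strand of a read cannot be told. The level under mir-183 is therefore given as deposited and also as the sum with mir-3553, which is the upper limit for mir-183.

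**Figure D1:**
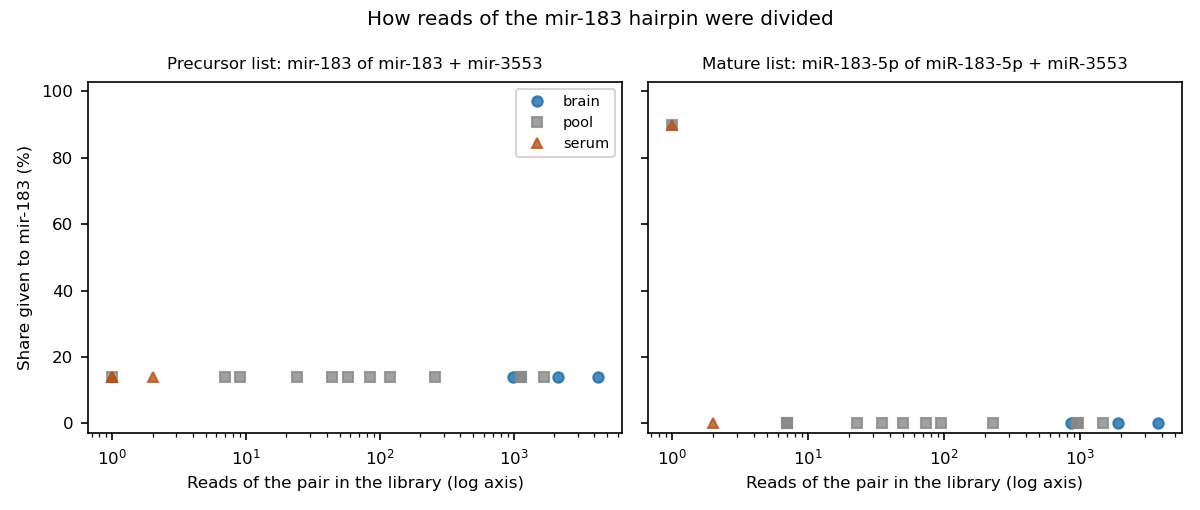
Share of reads assigned to mir-183 (vertical axis, percent) against the reads of mir-183 and mir-3553 together (horizontal axis, log scale), for precursors on the left and for miR-183-5p and miR-3553 on the right. Each mark is 1 library (circles brain, squares pools, triangles serum), and the precursor share of mir-183 stayed the same at every depth, with 86.0% under mir-3553, while the mature share was near 0 except in the libraries with 1 read.

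mir-182 was the most abundant member in all 15 tissues and was highest in brain and skin. Its level in the hemispheres was 44735, 37680 and 42982 RPM, with a mean of 41799 ± 3674 (SD, n = 3). It ranked 6, 7 and 5 among the 444 precursors there, with 4.47, 3.77 and 4.30% of all precursor reads. The skin pool held 38035 RPM (37605 to 38469), also rank 6, and lay inside the range of the hemispheres. Lung followed with 12410 RPM, large intestine with 9536, stomach with 8160, small intestine with 5502 and kidney with 4514 RPM. Thymus (2798 RPM), liver (2518), fat (2123) and the library labelled pancreas (1973) formed a middle group, in which thymus and liver, and fat and pancreas, overlapped in their intervals. The lowest tissues were spleen with 426 RPM, testes with 167 (27 reads), muscle with 156 and heart with 99.0 RPM. The tissues thus spanned a 422-fold range, with 10 of 14 pools at 1000 RPM or more, and the mean of the hemispheres was 15.7-fold the median pool. Centred on the median of the 15 tissues, as log2(RPM + 1), the level in brain was 3.90 (SD 0.13, n = 3).

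mir-183 followed the same leading tissues at a lower level. As deposited it was 496, 527 and 356 RPM in the hemispheres, a mean of 459 ± 91.2 (SD, n = 3). Summed with mir-3553 the level was 3544, 3761 and 2539 RPM, a mean of 3281 ± 652 (SD, n = 3), from 4269, 2146 and 986 reads. All 3 hemispheres were above every pool. Skin was next, with 209 RPM as deposited and 1493 RPM (1408 to 1583) for the sum, so that brain was 2.20-fold higher. The sum was 708 RPM in lung, 326 in stomach, 309 in large intestine, 254 in small intestine and 137 in kidney. Stomach and large intestine overlapped in their intervals. It was under 100 RPM in fat (89.9), thymus (88.1), liver (73.2), the library labelled pancreas (34.7), muscle (7.14) and heart (1.74, 1 read). Spleen and testes had 0 reads, where 3 reads are 14.1 and 18.5 RPM. The mean of brain was 233-fold and 177-fold above those 3-read levels. The Wilson upper bounds were higher than these levels, 18.0 RPM in spleen and 23.7 in testes. The centred log2 level of mir-183 as deposited was 5.08 in brain (SD 0.30, n = 3).

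mir-96 was below mir-182 in every tissue and under 100 RPM throughout. The hemispheres held 88.8, 71.8 and 97.9 RPM from 107, 41 and 38 reads, a mean of 86.2 ± 13.2 (SD, n = 3), and all were above the skin pool with 46.5 RPM (33.4 to 64.6, 35 reads). Large intestine (17.9 RPM, 66 reads), stomach (16.4, 13 reads) and lung (14.2, 34 reads) were the other pools with at least 10 reads. From large intestine downwards the intervals of neighbouring tissues overlapped, so their order was not resolved. The remaining pools had 9 reads or fewer: 14.9 RPM in the library labelled pancreas, 14.7 in kidney, 10.6 in thymus, 6.40 in small intestine, 3.05 in liver and 2.04 in fat. Heart, muscle, spleen and testes had 0 reads, and the mean of brain was 16.5-fold, 36.2-fold, 6.13-fold and 4.66-fold the 3-read level of each. Nearly all reads of the hairpin were the 5p arm: miR-96-5p had 356 of 358 reads (99.4%), and its count equalled that of the precursor in 18 of 20 libraries. The centred log2 level of mir-96 in brain was 2.91 (SD 0.23, n = 3).

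**Figure D2:**
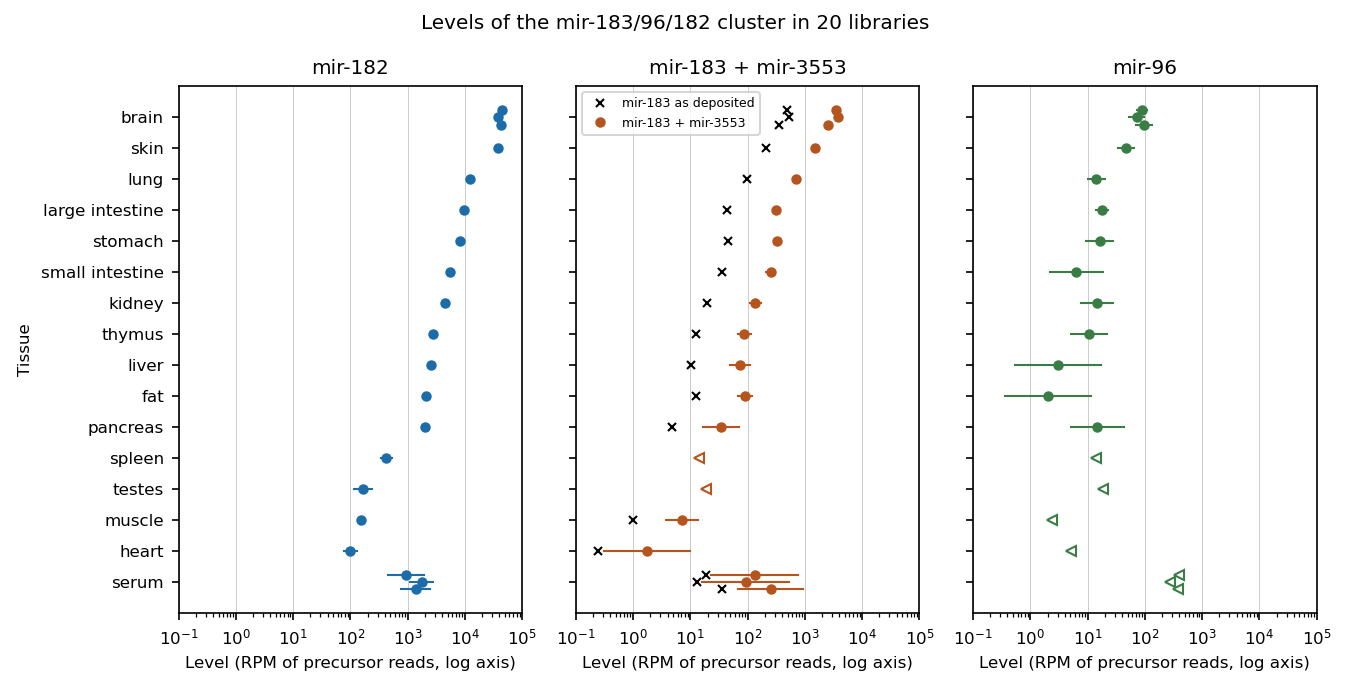
Level in RPM of precursor reads (horizontal log axis) of mir-182, mir-183 with mir-3553, and mir-96 by tissue (vertical axis), with 1 point per library, Wilson 95% intervals as lines, crosses for mir-183 as deposited and open triangles at the 3-read level for libraries with 0 reads. Brain and skin lead in each panel, with mir-182 at 37680 RPM or more in the hemispheres and skin, and with mir-96 at or below 97.9 RPM in every tissue.

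How far brain stood above skin depended on the scaling. Relative to the total reads, brain came first for each member. With TMM factors, which set libraries level on the bulk of the miRNAs, brain took position 2, behind skin, for mir-182 (21875 ± 3171 against 36130 RPM) and first for the sum of mir-183 and mir-3553 (1722 ± 410 against 1418, with the lowest hemisphere at 1252). For mir-96 brain then had 45.0 ± 7.50, skin 44.2 and large intestine 40.7 RPM. With size factors of DESeq2, brain took position 4 for mir-182 (14616 ± 2347, against 31211 in skin and 24363 in large intestine), position 2 for the mir-183 sum (1130 ± 146, against 1225 in skin) and position 3 for mir-96 (30.3 ± 7.22, against 45.7 in large intestine and 38.1 in skin). The list mattered as well: as mature miR-182, skin with 51454 RPM was above the hemispheres with 50131, 41409 and 47825. Kidney (6894 RPM) was likewise above small intestine (5366) in the mature list, the reverse of their order as precursors. In skin 68.8% of precursor reads were counted as a mature miRNA, against 84.3 to 85.1% in brain. For mir-182, brain did not exceed skin beyond the spread of the hemispheres under any of these 3 scalings.

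Within each tissue mir-182 lay above both other members, whereas the order of mir-183 and mir-96 depended on how the reads shared with mir-3553 were assigned. The comparison used the log2 ratio of reads, with 0.5 reads added to each, which does not depend on the scaling. It compares reads as captured, and the capture of each sequence was not tested. Where mir-96 had 0 reads (heart, muscle, spleen and testes), the ratio was set by the added 0.5 reads and the reads of the other member. It then depends on depth. mir-182 exceeded mir-183 as deposited by a mean of 7.25 on the log2 scale (SD 0.63 over 15 tissues) and exceeded mir-96 by 8.40 (SD 1.20), each in 15 of 15 tissues (exact two-sided sign-flip permutation test over tissues, p = 6.1e-05, the smallest the test can give, adjusted p = 9.2e-05 over the 3 pairs). In the 5 tissues with at least 10 reads of both, mir-182 exceeded mir-96 by 9.25 (SD 0.41). mir-183 exceeded mir-96 by 1.16 (SD 1.15) in 12 of 15 tissues (exact permutation p = 0.0022, adjusted p = 0.0022). The library labelled pancreas had the opposite order (-1.24, from 0.980 reads of mir-183 and 3 of mir-96), and spleen and testes had no read of either. With the reads of mir-3553 added, mir-182 exceeded mir-183 by 4.99 (SD 0.89) in 15 of 15 tissues, and mir-183 exceeded mir-96 by 3.42 (SD 1.89) in 13 of 15 (exact permutation, adjusted p = 0.00024). In the mature list, where nearly all reads of the shared site were listed under miR-3553, the order of the last pair turned. The mean log2 ratio of miR-183-5p over miR-96-5p was -3.08 (SD 2.77, exact permutation, adjusted p = 0.00098). Its sign largely follows from that assignment of reads, so the p-value is no evidence on the order of these miRNAs. Since neither the proportion used in the precursor list nor the sum gives the level of mir-183 itself, its order relative to mir-96 was not resolved.

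Among the 15 tissues, the share of the cluster reads under mir-183 and mir-3553 together was highest in brain. It was 7.33, 9.06 and 5.57% in the hemispheres, a mean of 7.32 ± 1.75% (SD, n = 3), and 0 to 5.39% in the pools. All 14 pools were below the lowest hemisphere, but lung with 5.39% (5.15 to 5.65%) overlapped the interval of that hemisphere (5.24 to 5.91%). So did fat (3.04 to 5.41%) and, at its edge, small intestine (3.70 to 5.25%). The wide intervals of muscle (2.32 to 8.09%), heart (0.305 to 9.14%) and testes (0 to 12.5%), which had few reads, overlapped it too. Among the 8 pools with at least 1000 cluster reads the range was 2.94% in kidney to 5.39% in lung. Per 1000 reads of mir-182, the hemispheres had 79.2, 99.8 and 59.1 reads of mir-183 and mir-3553, and those 8 pools 30.4 to 57.0. mir-182 made up 90.8 to 94.2% of the cluster in brain and 94.5 to 100% in the pools. In serum the share of mir-183 and mir-3553 together was 12.5% (2.24 to 47.1%), 5% (0.888 to 23.6%) and 15.4% (4.33 to 42.2%) of 8, 20 and 13 cluster reads. The place of serum relative to the tissues was therefore not resolved. The share of mir-96 was small throughout: 0.184, 0.173 and 0.215% in the hemispheres, and up to 0.367% in thymus (7 reads) and 0.735% in the library labelled pancreas (3 reads).

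The difference in makeup between brain and the pools did not pass the test. The log2 ratio of mir-182 to mir-183 as deposited was 6.52 ± 0.38 (SD, n = 3) in brain and 7.30 ± 0.61 (SD, n = 14) in the pools, a difference of -0.78 (exact two-sided permutation test over 680 regroupings, p = 0.05, adjusted p = 0.117 over the 3 pairs). With mir-3553 added the difference was -1.39 (exact permutation p = 0.019, adjusted p = 0.057). Without the testes pool, which had 27 cluster reads, the difference as deposited was -0.90 and passed (exact permutation, adjusted p = 0.027). mir-182 over mir-96 differed by 0.55 (exact permutation p = 0.482, adjusted p = 0.482) and mir-183 over mir-96 by 1.33 (exact permutation p = 0.078, adjusted p = 0.117). The hemispheres are 1 tissue that enters as 3 libraries, so p-values of brain against the pools can be too small, here and below.

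**Figure D3:**
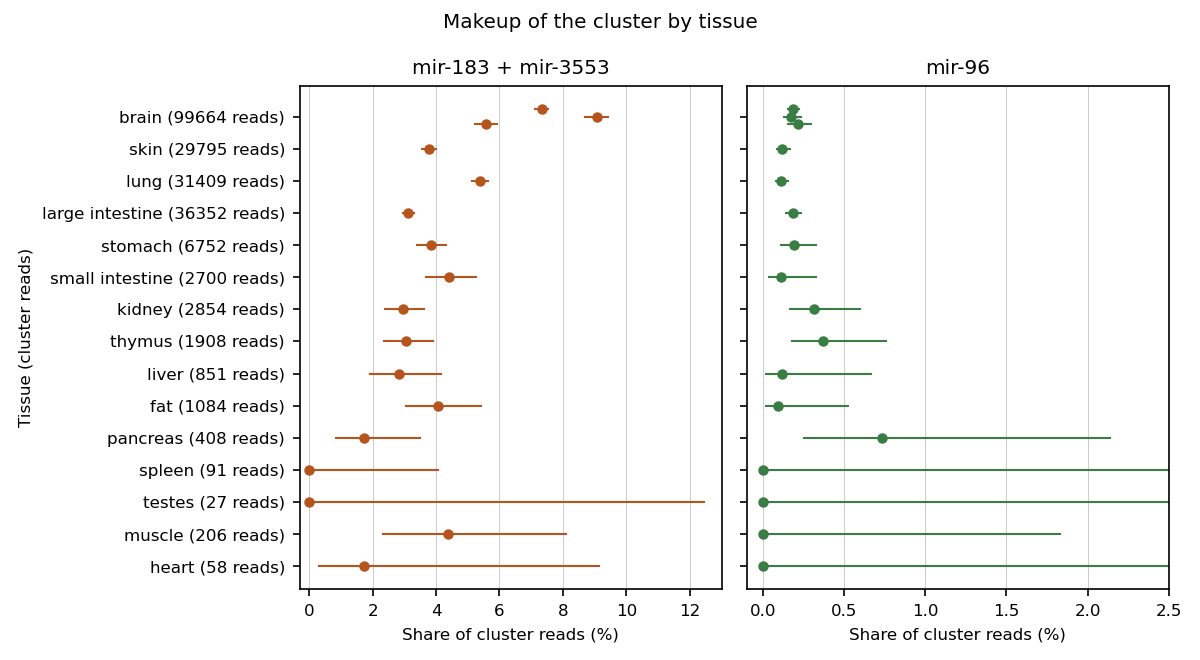
Share of the cluster's precursor reads (horizontal axis, percent) taken by mir-183 with mir-3553 and by mir-96 in each tissue (vertical axis, with the cluster reads in brackets), with 1 point per library and Wilson 95% intervals. The 3 hemispheres lie at 5.57 to 9.06% for mir-183 with mir-3553, above the point of every pool, and the mir-96 axis ends at 2.5%, which cuts the intervals of spleen, testes and heart.

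In serum, mir-182 was the member with the most reads. Serum replicates 1, 2 and 3 held 7, 19 and 11 reads of it, or 926, 1749 and 1387 RPM, a mean of 1354 ± 412 (SD, n = 3). Pooled over the 3 libraries the level was 1404 RPM (1019 to 1935), below 10 of the 14 pools and above spleen, testes, muscle and heart. Brain was 30.3-fold higher (22.0 to 43.0, counting error only). The sum of mir-183 and mir-3553 rested on 1, 1 and 2 reads, 152 RPM when pooled (59.0 to 390), and brain was 22.5-fold higher (8.80 to 82.7). mir-96 had 0 reads in serum, where 3 reads in the pooled libraries are 114 RPM, more than the 86.2 RPM of brain, so no fold is given.

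edgeR's quasi-likelihood test compared the hemispheres with serum over 235 precursors, with p-values adjusted by the Benjamini-Hochberg method and a call at 0.05. mir-182 was higher in brain by 4.79 on the log2 scale (SE 0.34, adjusted p = 1.7e-07), where 44.7% of all precursors tested were higher and 18.7% lower, with a median log2 difference of 2.15. mir-183 with mir-3553 added differed by 4.29 (SE 0.38, adjusted p = 1.5e-06). As deposited, mir-183 was also called (adjusted p = 0.0014), with serum at 0 after rounding of 0.140 to 0.280 reads, so its fitted change of 10.44 is no measure of size. mir-96, with 0 reads in serum, was not called (adjusted p = 0.134), and its fitted size depends on the tool (8.01 with edgeR, 1.67 with DESeq2). mir-183, mir-3553 and mir-96 reached the 10 counts asked of 3 libraries in brain alone, so they could enter the test only by being high there, and their calls are not counted in support of a difference. mir-182 reached 10 counts in 2 serum libraries as well. In the mature list, with 52.8% of 212 tested higher in brain by edgeR, 14.2% lower and a median of 3.86, miR-182 differed by 5.07 (SE 0.49, adjusted p = 1.5e-11). miR-3553 differed by 5.27 (SE 0.69, adjusted p = 1.8e-08), but serum held 0, 0.102 and 2 reads of it. The value was 13.30 without serum replicate 3, so its size is not resolved. miR-3553 and miR-96-5p reached 10 counts in brain alone, so the call of miR-3553 is likewise not counted in support of a difference. miR-96-5p had 0 reads in serum, where 3 reads in the pooled libraries are 173 RPM, against 100.8 RPM in brain. It did not pass (edgeR adjusted p = 0.057), with a fitted 8.05 by edgeR and 1.84 by DESeq2.

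Against the 14 pools as 1 group, none of the members passed when libraries were scaled by TMM. The log2 difference of brain over the pools was 1.45 for mir-182 (SE 1.17, edgeR adjusted p = 0.292), 2.46 for mir-183 (SE 1.16, adjusted p = 0.088; 2.47 with mir-3553, adjusted p = 0.112) and 1.64 for mir-96 (SE 1.05, adjusted p = 0.188). Of 295 precursors tested, 24.1% were higher in brain and 18.6% lower. Scaled to total reads, all 3 were higher: mir-182 by 2.73 (SE 1.05, edgeR adjusted p = 0.040), mir-183 by 3.68 (SE 1.10, adjusted p = 0.011) and mir-96 by 2.97 (SE 0.94, adjusted p = 0.016). That scaling moved the median of all precursors from 0.17 to 1.20 and the calls from 71 higher and 55 lower to 123 higher (41.7%) and 24 lower (8.14%). Relative to the median of all precursors, brain was above the pools by 1.28 (TMM) and 1.53 (totals) for mir-182, by 2.29 and 2.48 for mir-183, and by 1.47 and 1.77 for mir-96. Skin, the pool nearest to brain, weighed on the result for mir-183 as deposited, which passed without it (2.90, edgeR adjusted p = 0.048). mir-3553, which holds the rest of the same reads, did not pass without skin (2.92, edgeR adjusted p = 0.063). In the mature list, where 20% of 290 were called higher and 24.1% lower, miR-182 differed by 1.23 (edgeR adjusted p = 0.379), miR-3553 by 2.23 (adjusted p = 0.153) and miR-96-5p by 1.35 (adjusted p = 0.283). Scaled to totals (30% higher, 9.66% lower), miR-3553 (3.52, edgeR adjusted p = 0.028) and miR-96-5p (2.73, adjusted p = 0.027) passed and miR-182 did not (2.55, adjusted p = 0.057).

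The part of the mir-182 hairpin reads that was counted as mature miR-182 also varied with tissue. It was 94.9, 93.5 and 93.8% in the hemispheres, and 11 of 14 pools were below the lowest of these. The small intestine had the lowest share, 78.1% (76.5 to 79.7%), followed by liver with 80.6% (77.8 to 83.2%) and the library labelled pancreas with 84.2% (80.3 to 87.4%). Lung had 97.0% (96.8 to 97.2%) and spleen 97.8% from 91 reads. In 19 of 20 libraries the share was above that of all miRNAs together, and the small intestine was the exception (80.1% over all miRNAs). For mir-183 and mir-3553 together the mature share, both arms of the hairpin included, was 87.0, 88.4 and 86.4% in the hemispheres and 86.5% in skin. What the remaining reads are, and whether they differ in length or position from the listed mature form, was not tested.

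**Figure D4:**
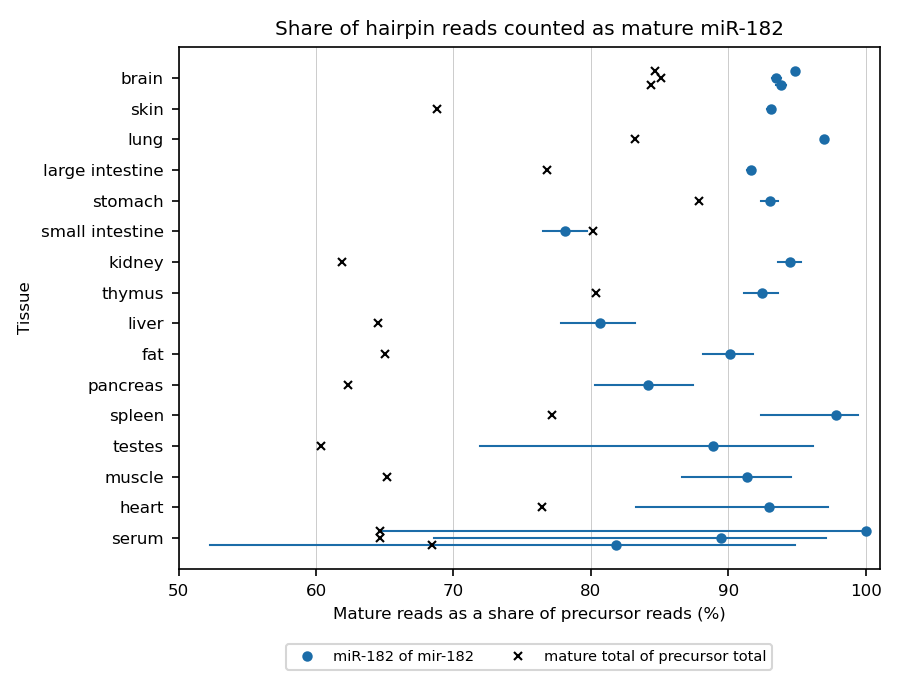
Reads counted as mature miR-182 as a share of mir-182 precursor reads (circles, percent, Wilson 95% intervals) by tissue, with the mature total as a share of the precursor total of each library as crosses. The horizontal axis starts at 50%, and small intestine at 78.1% and liver at 80.6% lie lowest among the tissues while the hemispheres lie at 93.5 to 94.9%.

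The levels of the members ran in parallel over the tissues. On log2(RPM + 1) over 15 tissues, Pearson's r was 0.968 for mir-182 and mir-183, 0.942 for mir-182 and mir-96, and 0.920 for mir-183 and mir-96. With mir-3553 added to mir-183 the values were 0.953 with mir-182 and 0.916 with mir-96. Among 272 other precursors, none had a higher r with mir-182 than its cluster partners, the highest being 0.926. These are descriptions over tissues whose values come from the same libraries. Among 273 precursors outside the cluster with a mean of at least 10 RPM, the pattern nearest to the mean of the 3 members was that of mir-3553 (r = 0.974), which shares reads with mir-183. Next came mir-200a (0.912), mir-429 (0.907), mir-200b (0.866) and mir-141 (0.809), all of the mir-200 family. In RPM of total reads each of these was highest in the large intestine, where no member of the cluster was, for instance mir-200a with 2218 RPM there against 929 ± 125 in brain (SD, n = 3), and mir-429 with 3270 against 1397 ± 388.

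miRNAs known from epithelia and from neuroendocrine cells were counted beside the cluster. Of the 7 epithelial precursors (the mir-200 family, which keeps epithelial cells from taking on mesenchymal character, with mir-203a and mir-205 of stratified epithelium), 4 were tested against serum. All 4 reached 10 counts in the 3 brain libraries and in 0 serum libraries, so they could enter only by being high in brain, and that edgeR called all 4 higher there (44.7% of all precursors) is no support. The highest was mir-429 (12.04, adjusted p = 0.000103, with serum at 0 reads, so that the size is no bound) and the lowest mir-141 (2.98, SE 0.46, adjusted p = 0.000109). Against the pools, 7 were tested, 0 were higher (24.1% over all precursors) and 1 was lower (18.6% over all), mir-203a (-8.16, SE 2.71, edgeR adjusted p = 0.024). Their median difference was -2.25 beside 0.17 over all precursors, with mir-429 highest (-0.73, adjusted p = 0.707) and mir-205 lowest (-8.54, adjusted p = 0.057). mir-203a had 40295 RPM in skin and 27.1 ± 15.6 in brain (SD, n = 3). Of the 4 neuroendocrine precursors (mir-375 and the mir-7 genes, abundant in hormone-secreting cells), 3 were tested against serum. By edgeR, 0 were higher (44.7% over all precursors) and 2 lower in brain (18.7% over all), mir-375 (-1.27, adjusted p = 0.0077) and mir-7a-2 (-3.89, adjusted p = 0.0021), the lowest, while mir-7a-1 was highest (-0.34, adjusted p = 0.886). Their median was -1.27, beside 2.15 over all precursors. These 3 too reached 10 counts in the 3 brain libraries and in 0 serum libraries. Serum held 754 ± 276 RPM of mir-375 and 266 ± 136 RPM of mir-7a-2 (SD, n = 3), where 3 reads are 276 to 397 RPM. The calls and the median thus rest on few serum reads and are not counted in support of a difference. Against the pools, 3 were tested, 0 were lower (18.6% over all precursors) and 1 was higher (24.1% over all), mir-7a-1 (1.50, edgeR adjusted p = 0.038), with mir-7a-2 highest (2.40, adjusted p = 0.055), mir-375 lowest (-5.06, adjusted p = 0.104) and a median of 1.50. mir-7a-1 reached 10 counts in 3 brain libraries and 1 pool, and mir-7a-2 in brain alone, so neither is support for a difference.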

How the data were processed

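Per the labels and the study's methods, the authors made TruSeq small RNA libraries for a MiSeq, removed bases of low quality (Phred 20), used Bowtie with the Rn5 genome, and counted features of miRBase 21 and RefSeq in Partek. Tool versions are not given in the sources used here. The values that the authors deposited are estimated counts per feature (expected counts), some of them fractional and none normalized, for RefSeq, precursor and mature lists stacked in each file. RPM was taken within each list. The cluster, the lists of miRNAs, the markers and the tests were chosen with earlier results of these data known.

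Counts were rounded to whole numbers for edgeR 4.0.16 (quasi-likelihood, TMM, R 4.3.3), which tested features reaching 10 counts in 3 or more of the libraries compared, with p-values adjusted by Benjamini-Hochberg over all features tested. Standard errors are the log2 fold change over the root of the F statistic. DESeq2 1.42.0 was an alternative. Ratios were tested by exact permutation written in Python with NumPy. SciPy 1.17.1 gave the intervals of the folds of brain over serum. Levels and figures used Python 3.11.15, pandas 2.3.3, NumPy 2.4.6 and Matplotlib 3.10.9. The procedure was tested on simulated data. Sequences were matched by name to RefSeq (GRCr8). Named miRNAs were the members with their arms, sharers of their seeds, the 5 precursors most like the cluster, and the highest and lowest of each list. mir-203a, mir-375 and mir-7a-2 are further named as the called members of their lists, mir-200a as an example, and mir-3553 and the pancreas and liver markers because a result turns on them. The sum with mir-3553 and the omission of the library labelled pancreas were chosen after seeing the data. Serum depth limits precision, since 3 reads are 276 to 397 RPM there. Replicates differed by more than counting noise (chi-square per degree of freedom 7.20 to 62.2), so none was a library deposited more than once. The RefSeq list served as an alternative only.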

Additional observations from a re-analysis of the deposited data

How the results depend on the processing

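Asking 10 counts of every library left 46 calls among 51 precursors and 26 among 35 mature miRNAs against serum, and 32 among 100 and 29 among 86 against the pools, with main counts of 149, 142, 126 and 128. Against serum no member then had a test, and against the pools mir-182 and miR-182 alone did. Leaving out 1 library gave 55 to 141 and 36 to 128 calls against serum and 38 to 148 and 39 to 140 against the pools. The low ends came from leaving out a hemisphere, whereupon 68 precursors or 50 mature miRNAs could be tested against serum and neither mir-183 nor mir-96 was among them. DESeq2 called 148 and 125 against serum and 187 and 168 against the pools (68 precursors higher, 119 lower). DESeq2 size factors in edgeR gave 52 precursors higher and 82 lower. The cause was not tested. The replicate numbers did not pair brain and serum (correlations of same-numbered libraries 0.10, -0.11 and -0.08 over 75 precursors, and not every library was nearest its own number). With the number as a block, edgeR called 141 precursors and 125 mature miRNAs, and no call on a member changed. Without a count filter, miR-96-5p passed against serum in edgeR (7.99, adjusted p = 0.014), and over all alternatives its adjusted p ran from 0.014 to 0.295.

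For mir-182 over mir-183, brain minus pools, the difference passed with 0.1 reads added (-1.29, exact permutation, adjusted p = 0.031) and with 10 reads of both members (-0.94, exact permutation, adjusted p = 0.036, 6 pools). Leaving out 1 library gave -0.97 to -0.60. With 10 reads of both members, 5 tissues were left for mir-182 over mir-96 (9.25) and mir-183 over mir-96 (2.01), where 0.0625 is the smallest exact p. Mature arms turned mir-183 over mir-96 to -3.08. The brain minus pools differences, which did not pass, became 4.58 for mir-182 over mir-183 (exact permutation, adjusted p = 0.071). For mir-183 over mir-96 the difference became -3.96 (exact permutation, adjusted p = 0.066). These mature values largely follow from the assignment of nearly all shared reads to miR-3553, so no conclusion is drawn from them. The centred brain level of mir-182 fell from 3.90 to 2.62 with TMM and 1.59 with DESeq2 size factors. That of mir-183 went from 5.08 to 3.96 and 2.83, to 4.38 with 10 RPM added, to 4.51 without tissues at 0 reads, and to 0.0018 as miR-183-5p. That of mir-96 went from 2.91 to 2.03, 1.13, 2.22 and 2.47 in the same order without the mature arm.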
